A study of Mus musculus with 10 samples.

Results

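Transcripts for the subunits and assembly factors of the proteasome were followed in the bone marrow of mice that had received fetal liver HSCs from vitamin D-deficient (VD(-)) or vitamin D-sufficient (VD(+)) embryos. Members were all genes whose symbol starts with Psm, a letter from a to g and a digit, measured by a probe set that lists 1 gene symbol, with the probe set of highest mean over the 10 arrays standing for each gene. This gave 50 genes of the 19938 genes on the array, and the rule used no measured difference between the groups. VD(-) HSC recipients were mice of the C57BL6 strain, labelled 8 weeks, whose donor HSCs came from embryos of dams on a vitamin D-deficient diet. VD(+) HSC recipients were of the same strain and age, with donor HSCs from dams on a vitamin D-sufficient diet. Per the study's methods, recipients in both groups were irradiated and vitamin D sufficient, so the groups differed in the diet of the dam and not in that of the recipient, and blood and marrow cells of the host that survived irradiation can contribute to the RNA. Each group held 5 arrays, 3 of single samples (replicates 1, 2 and 3) and 2 labelled pools (pools 1 and 2), and the number and origin of the animals behind a pool are not stated, so each p-value measures the spread between these arrays alone. The tissue is labelled BM while the treatment note speaks of bone marrow macrophages, and the sources differ on the time between transplantation and collection.

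The proteasome is the protease that degrades most ubiquitin-tagged proteins of the cell. Its barrel-shaped core is built of alpha rings, which gate the barrel, and beta rings, which carry the catalytic sites. A regulatory cap with an ATPase base and a lid binds, unfolds and deubiquitinates substrates. Cells of the immune system, and other cells exposed to interferon, replace the catalytic subunits Psmb5, Psmb6 and Psmb7 with Psmb8, Psmb9 and Psmb10, and dock the activator formed by Psme1 and Psme2, which yields the immunoproteasome and favours peptides that fit MHC class I. When proteasome activity falls short, the transcription factor NFE2L1 (also called NRF1) raises the constitutive subunit genes together through antioxidant response elements, whereas the immunoproteasome genes are best known as targets of interferon-activated STAT and IRF factors.

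Promoters of these 2 sets are shown because the comparison turns on whether constitutive and inducible subunits moved apart. RefSeq promoter windows (GRCm38.p6) were matched for 42 members, and Psma8, Psmb1, Psmb2, Psmb7, Psmc3, Psmd3, Psmd7 and Psmg2 were not matched. Within the 250 bases before the start, on both strands, the antioxidant-response-like letters TGACNNNGC stood in 5 members, or 11.9%, namely Psmb5, Psmb6, Psmc6, Psmd12 and Psmd9, against 11.5% of the 27025 genes in the table, so the letters were about as frequent as in promoters at large. Stretches of 60 bases around them, written 5′ to 3′ on the strand of the gene with the matching bases in capitals (in Psmc6 and Psmd12 the match is on the other strand), were as follows.
Psmb5 (chr14:54618009-54618068, minus strand): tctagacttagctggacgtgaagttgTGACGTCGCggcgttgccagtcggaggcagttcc
Psmb6 (chr11:70525297-70525356, plus strand): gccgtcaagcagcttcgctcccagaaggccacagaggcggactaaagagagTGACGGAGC
Psmc6 (chr14:45329574-45329633, plus strand): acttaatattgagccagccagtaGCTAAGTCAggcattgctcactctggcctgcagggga
Psmd12 (chr11:107479278-107479337, plus strand): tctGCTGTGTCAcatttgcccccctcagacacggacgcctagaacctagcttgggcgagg
Psmd9 (chr5:123228130-123228189, plus strand): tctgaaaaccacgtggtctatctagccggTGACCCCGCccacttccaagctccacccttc

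The STAT-type letters TTCNNNGAA stood in 2 of the 42 members, Psmb8 and Psmg1 (8.13% of all genes held them), and the interferon-response-like letters GAAANNGAA in 3, Psmb3, Psmd4 and Psmd9 (8.18% of all genes). None of the 5 immunoproteasome members held the second set of letters in this window. CCAAT stood in 16 members (37.5% of all genes) and the GC box GGGCGG in 23 (35.4%), and in Psmd9 a GC box on the other strand overlaps the capitals above. Psmb9 and Tap1, which encodes a subunit of the transporter that carries proteasome peptides into the endoplasmic reticulum, face away from each other with 225 bases between their starts. The stretch of Psmb8 with the STAT-type letters in capitals and the stretch of Psmb9 next to its start, with CCAAT on the other strand in capitals, read as follows.
Psmb8 (chr17:34198072-34198131, plus strand): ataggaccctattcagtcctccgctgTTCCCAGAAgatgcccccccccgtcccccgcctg
Psmb9 (chr17:34187331-34187390, minus strand): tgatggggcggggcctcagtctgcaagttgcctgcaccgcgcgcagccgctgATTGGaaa

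Values are log2 intensities after RMA, a method that corrects the background and gives all arrays the same distribution, and array medians lay between 4.74 and 4.80. Of the 50 members, 48 had a mean above the median of all probe set means, 4.74. The exceptions were Psma8 (mean 4.30), the alpha subunit of the testis, and Psmb11 (mean 3.49), the catalytic subunit of the thymic epithelium, neither of which marrow is known to use. Marker lists of neutrophils (array means 11.47 to 11.86 in VD(-) and 11.54 to 11.76 in VD(+) recipients) and of the erythroid lineage (9.78 to 9.96 in VD(-) and 9.78 to 9.97 in VD(+) recipients) were present throughout, as in whole marrow. Y-linked genes averaged 6.64, 6.80 and 5.31 in VD(-) replicate 1, pool 1 and pool 2, against 2.25 to 2.56 in the other 7 arrays. Xist, a transcript of female cells, read 7.76, 8.14 and 9.83 in those 3 arrays, against 10.08 to 10.33 in the other 7. The sex-linked signal thus differed between these 3 VD(-) arrays and the other 7, which include VD(-) replicates 2 and 3. Per the study's methods, donor cells were pooled from male and female embryos, and these 3 arrays held both Y-linked and Xist signal. The shares of male and female cells were not measured. VD(+) replicate 1 had the lowest array weight in limma, 0.544, and it is the array on which many results below depend. In marrow, fewer cells of a type and less RNA per cell cannot be told apart.

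The catalytic subunits of the constitutive core were the first comparison, which asks whether the marrow grown from VD(-) HSCs expressed the core at another level. Psmb5, which carries the chymotrypsin-like site, had log2 values of 9.57, 9.62, 9.59, 9.70 and 9.71 in VD(-) replicates 1, 2 and 3 and pools 1 and 2, against 9.39, 9.52, 9.32, 9.56 and 9.50 in the same order of VD(+) recipients. All 5 VD(-) arrays lay above all 5 VD(+) arrays. The log2 fold change was 0.18 (SE 0.069, 95% interval 0.030 to 0.33), a ratio of 1.13, with a nominal limma p of 0.0230 but an adjusted p of 0.634 over all 35556 probe sets, so Psmb5 did not pass the test. The exact two-sided permutation p was 0.00794, which is the smallest that 5 arrays against 5 can give. Over all probe sets, 0.911% had every VD(-) array above every VD(+) array and 0.641% had every one below, and Psmb5 was the 1 member of 50 with groups that did not overlap.

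Psmb6, with the caspase-like site, had 10.06, 9.72, 9.71, 10.03 and 9.92 in VD(-) recipients, against 9.41, 9.78, 9.74, 9.73 and 9.82 in VD(+) recipients. The groups overlapped, and VD(+) replicate 1 stood 0.77 of the group's range below its neighbour. The log2 fold change was 0.19 (SE 0.10, limma adjusted p = 0.747). Psmb7, with the trypsin-like site, had 9.42, 9.45, 9.05, 9.59 and 9.33 in VD(-) recipients, against 8.78, 9.44, 9.37, 9.31 and 9.33 in VD(+) recipients. The low array was again VD(+) replicate 1, and the difference of 0.12 (SE 0.14, limma adjusted p = 0.886) was within the spread of the arrays. Without VD(+) replicate 1 the log2 fold change of Psmb7 was 0.0061 and that of Psmb6 was 0.12, while that of Psmb5 was 0.16. Among the 7 arrays without Y-linked signal, described above, the difference was 0.018 for Psmb6 and 0.0021 for Psmb7, and 0.15 for Psmb5.

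**Figure D1:**
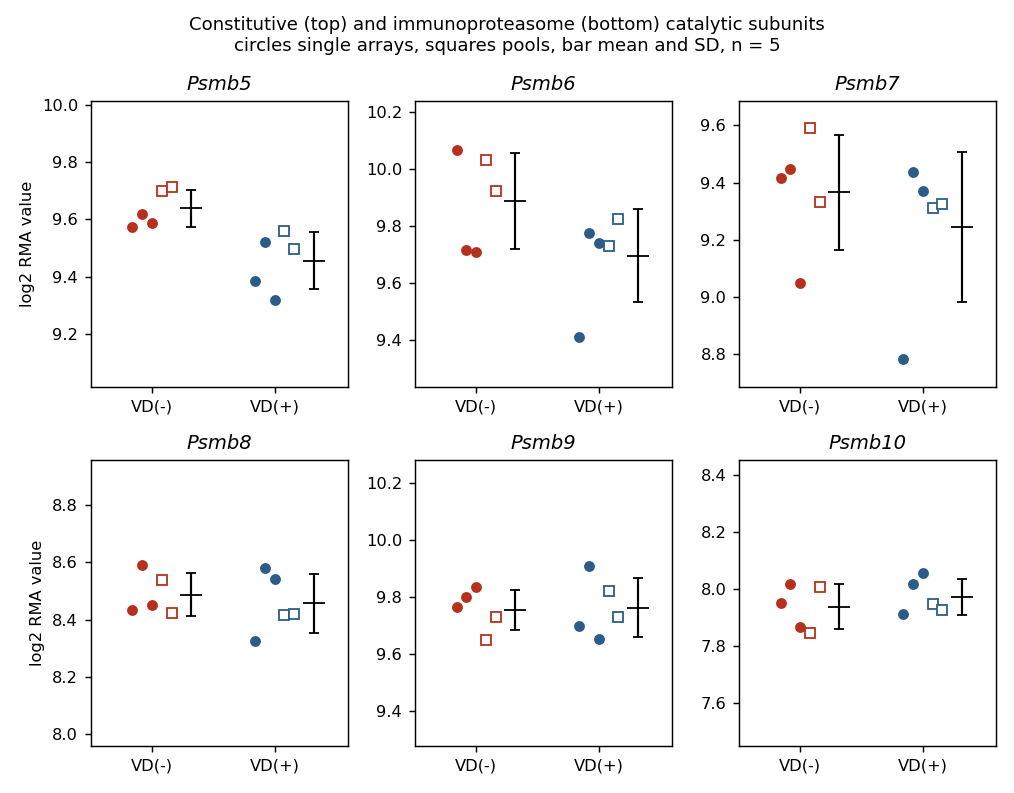
Log2 RMA values (vertical axes, each spanning 1.0) of the constitutive catalytic subunits Psmb5, Psmb6 and Psmb7 (top) and of the immunoproteasome subunits that replace them, Psmb8, Psmb9 and Psmb10 (bottom), in VD(-) (red, left) and VD(+) (blue, right) HSC recipient marrow. Circles are single arrays, squares pools and black bars the mean and SD (n = 5); only the panel of Psmb5 shows groups that do not overlap, and the lowest VD(+) circles of Psmb6 (9.41) and Psmb7 (8.78) are the same array.

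The inducible counterparts lay close together in both groups. Psmb8, which takes the place of Psmb5, had 8.43, 8.59, 8.45, 8.54 and 8.42 in VD(-) recipients, against 8.32, 8.58, 8.54, 8.42 and 8.42 in VD(+) recipients (log2 fold change 0.031, SE 0.071). Psmb9, which takes the place of Psmb6, had 9.76, 9.80, 9.83, 9.65 and 9.73 in VD(-) recipients, against 9.70, 9.91, 9.65, 9.82 and 9.73 in VD(+) recipients (log2 fold change -0.0069, SE 0.070). Psmb10, which takes the place of Psmb7, had 7.95, 8.02, 7.87, 7.85 and 8.01 in VD(-) recipients, against 7.91, 8.02, 8.06, 7.95 and 7.93 in VD(+) recipients (log2 fold change -0.034, SE 0.064). For each of these 3 genes the groups overlapped almost completely.

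The activator subunits gave no clearer separation. Psme1 had 9.64, 9.60, 9.60, 9.68 and 9.62 in VD(-) recipients, against 9.79, 9.75, 9.65, 9.59 and 9.60 in VD(+) recipients, with a log2 fold change of -0.050 (SE 0.063). Psme2 had 8.14, 8.38, 8.30, 8.24 and 8.35 in VD(-) recipients, against 8.02, 8.44, 8.21, 8.25 and 8.01 in VD(+) recipients, with a log2 fold change of 0.099 (SE 0.093). A second probe set, shared by Psme2 and Psme2b, was left out by the rule and gave -0.055. The smallest adjusted p of the 5 immunoproteasome members was 0.858 in limma, and their 95% intervals together ran from -0.19 to 0.30, so changes of 1.5-fold (0.58 on the log2 scale) in either direction lay outside the interval of every one of them. The immunoproteasome median was -0.0069, with 2 of 5 members above 0.

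Each inducible subunit was then set against the constitutive subunit it replaces, on the same array, after centring each gene on its mean over the 10 arrays. The Psmb8 over Psmb5 difference averaged -0.076 ± 0.094 in VD(-) recipients and 0.076 ± 0.15 in VD(+) recipients on the log2 scale (SD, n = 5 each). For Psmb9 over Psmb6 the averages were -0.10 ± 0.23 in VD(-) and 0.10 ± 0.16 in VD(+) recipients. Those for Psmb10 over Psmb7 were -0.078 ± 0.21 in VD(-) and 0.078 ± 0.23 in VD(+) recipients. All 3 pairs leaned towards the constitutive subunit in VD(-) recipients, by 0.15, 0.20 and 0.16, and in all 3 the groups overlapped. For Psmb9 over Psmb6 and for Psmb10 over Psmb7 the most extreme values came from VD(-) pool 1 (-0.35 and -0.40) and VD(+) replicate 1 (0.32 and 0.48), the arrays with the highest and lowest core transcripts.

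The remaining beta subunits, Psmb1 to Psmb4, are structural. Their log2 fold changes ran between 0.0021 for Psmb4 and 0.13 for Psmb3, whose second probe set gave 0.19. Among the alpha subunits, Psma1 to Psma7 all lay above 0. Psma5 showed the highest value of them, 0.16 (SE 0.15), with 10.05, 9.95, 9.54, 10.18 and 9.91 in VD(-) recipients, against 9.27, 9.91, 9.89, 9.90 and 9.85 in VD(+) recipients. Psma7 gave 0.11 (SE 0.083) and had the smallest nominal p of its class, 0.218. The lowest array was VD(+) replicate 1 for both genes, and without it the difference for Psma5 was 0.040. Psma8 (log2 fold change -0.085, SE 0.21) and Psmb11 (-0.18, SE 0.12) were dim, as given above, and were the only core genes below 0. The 14 core genes other than these were all above 0, with a median of 0.11, while 50.3% of all genes and 57.1% of the brighter ones were above 0, with medians of 0.0010 and 0.020. Those 14 genes share the same arrays and moved together across them, so their common sign is not 14 separate observations.

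In the regulatory cap, the ATPases Psmc1 to Psmc6, which unfold substrates, were all above 0 and ranged between 0.020 for Psmc1 and 0.15 for Psmc6. A second, dimmer probe set of Psmc1 gave 0.14. Psmc6 had 8.74, 8.73, 8.50, 8.96 and 8.63 in VD(-) recipients, against 8.10, 8.65, 8.64, 8.70 and 8.72 in VD(+) recipients, a difference of 0.15 (SE 0.13) that was 0.034 without VD(+) replicate 1. Psmc5 gave 0.14 (SE 0.091, exact permutation p = 0.151). The ubiquitin receptor Psmd4 had the lowest value of the base, with 8.92, 8.89, 8.86, 8.96 and 8.84 in VD(-) recipients, against 8.90, 8.95, 8.97, 8.94 and 9.06 in VD(+) recipients (log2 fold change -0.072, SE 0.058, exact permutation p = 0.0635). The scaffold subunits Psmd1 and Psmd2 gave -0.033 and 0.0068. Base genes had a median of 0.071, with 7 of 9 above 0.

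Within the lid, Psmd7, the partner of the deubiquitinase Psmd14, had 8.45, 8.23, 8.35, 8.61 and 8.48 in VD(-) recipients, against 8.01, 8.40, 8.32, 8.10 and 8.33 in VD(+) recipients. Its log2 fold change was 0.19 (SE 0.098, limma adjusted p = 0.741, exact permutation p = 0.103), and the groups overlapped. Psmd14 gave 0.082, Psmd6 0.17 and Psmd12 0.13, and the lowest lid value was -0.031 for Psmd11, a subunit that helps to hold base and lid together. Psmd3 was the lid gene in which VD(+) replicate 1 was not low but the highest of all arrays, at 7.10. The lid median was 0.064, with 6 of 8 above 0, and no gene of base or lid passed a nominal p below 0.05.

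**Figure D2:**
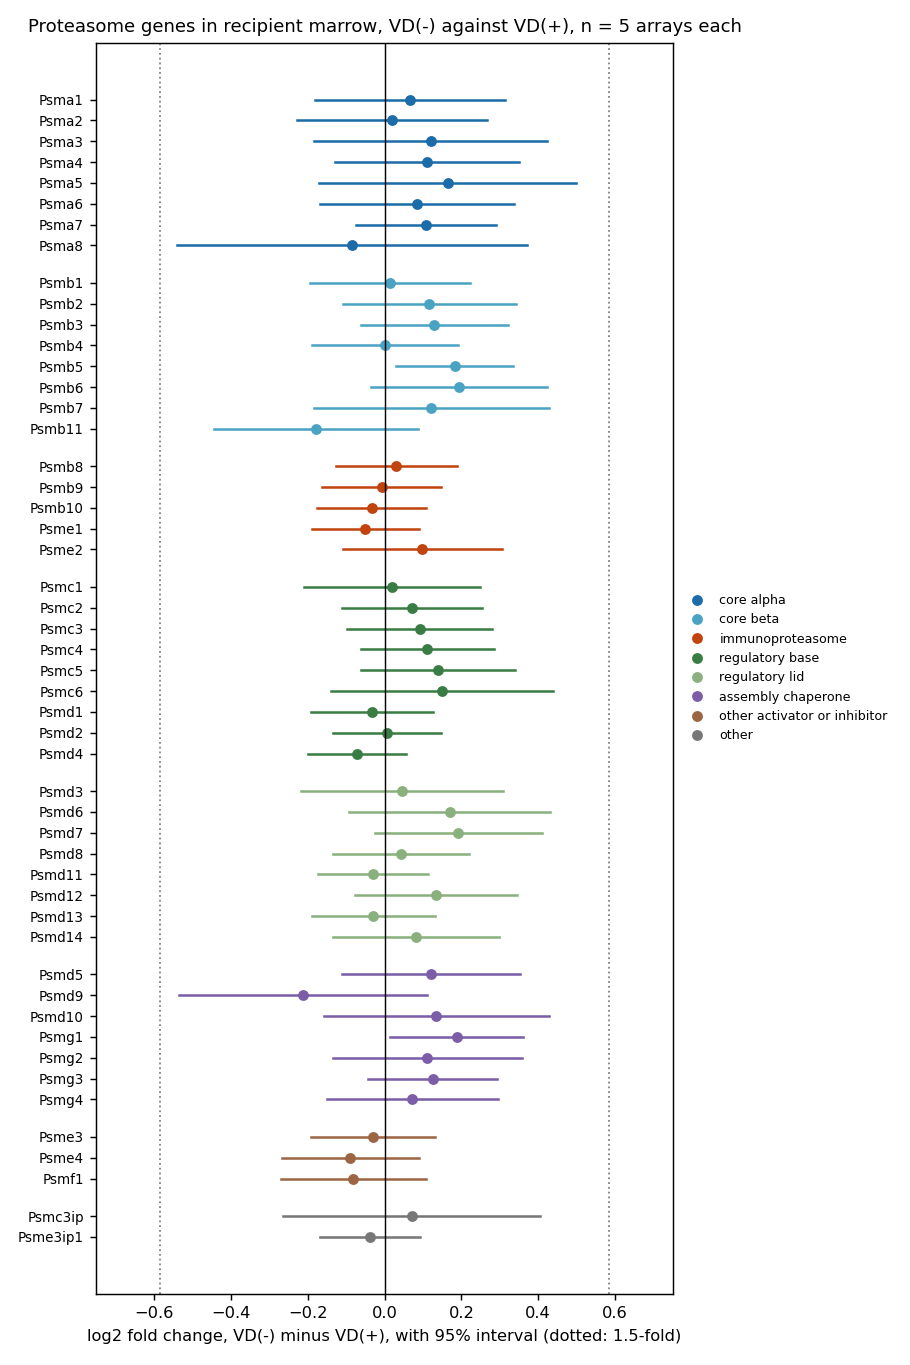
Log2 fold change of VD(-) over VD(+) HSC recipient marrow (horizontal axis) for each of the 50 genes, grouped and coloured by role, with 95% intervals from limma (n = 5 arrays per group) and dotted lines at 1.5-fold. Core, cap and chaperone genes sit mostly right of 0 (36 of 50 in all), only Psmb5 and Psmg1 have an interval that leaves out 0, and no interval reaches a dotted line.

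Assembly chaperones guide subunits into the growing complex and leave it, or are degraded, on completion. Psmg1, which with Psmg2 starts the alpha ring, had 7.08, 6.96, 7.03, 7.14 and 7.24 in VD(-) recipients, against 6.73, 6.97, 6.91, 6.87 and 7.02 in VD(+) recipients. The lowest VD(-) array overlapped the 2 highest VD(+) arrays. The log2 fold change was 0.19 (SE 0.079, nominal limma p = 0.0366, adjusted p = 0.676, exact permutation p = 0.0317), which does not pass the adjusted test. Psmg2, Psmg3 and Psmg4 gave 0.11, 0.13 and 0.072, and the base chaperones Psmd5 and Psmd10 0.12 and 0.13.

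Psmd9, another chaperone of the base, lay the other way and had the lowest fold change of all 50 genes. Its values were 7.66, 7.31, 7.31, 7.87 and 7.54 in VD(-) recipients, against 7.68, 7.45, 7.86, 7.62 and 8.13 in VD(+) recipients (log2 fold change -0.21, SE 0.15, limma adjusted p = 0.805). Its groups overlapped, and its SDs of 0.24 in VD(-) and 0.26 in VD(+) recipients were the widest of the chaperones. The alternative activators Psme3 and Psme4 and the inhibitor Psmf1 gave -0.030, -0.089 and -0.081, with 0 of 3 above 0. Psmc3ip, a meiotic recombination factor named for its binding to Psmc3, gave 0.071, and Psme3ip1, which binds Psme3, gave -0.038.

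Over all 50 members, none passed an adjusted p of 0.05 in limma in either direction, and the smallest adjusted p was 0.634. By the same test 0.045% of the 35556 probe sets were called higher and 0.0731% lower. At a nominal p below 0.05, 2 members were higher, Psmb5 and Psmg1, and 0 were lower. That is 2 of 50 beside 3.85% higher and 3.23% lower over all probe sets, a share close to the background. The second probe set of Psmb3, which the rule left out, also passed a nominal p, as given above. The thresholds in the study's methods, a nominal p below 0.05 with a log2 difference above 0.25 or below -0.089 (set there as ratios), were met by 0 members in either direction, against 2.64% of probe sets higher and 3.23% lower. The methods' t-test also gave 2 members at a nominal p and none after adjustment (smallest adjusted p 0.555). Median log2 fold changes by role were 0.096 for core alpha, 0.12 for core beta, 0.071 for the base, 0.064 for the lid and 0.12 for the chaperones, beside -0.0069 for the immunoproteasome. Every one of the 50 intervals lay within 1.5-fold in either direction, the widest bounds being -0.54 for Psma8 and 0.50 for Psma5.

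For the constitutive genes, the widest differences lay between single arrays. VD(+) replicate 1 was the lowest of the 10 arrays for 26 of 50 members and for 11 of the 14 expressed core genes, while it was lowest for 16.7% of all genes. It was also the highest for 3 of 50 members and 16.2% of all genes. Over all genes, its share was the largest of any array on both sides. VD(-) pool 1 was the highest for 25 members and again for 11 of the 14 core genes, beside 12.7% of all genes. The mean of the 14 core genes, as a deviation from their mean over the 10 arrays, was 0.13, 0.062, -0.19, 0.21 and 0.037 in VD(-) replicates 1, 2 and 3 and pools 1 and 2, against -0.35, 0.031, -0.0076, 0.039 and 0.033 in the same order of VD(+) recipients. VD(-) replicate 3 thus lay below 4 of the 5 VD(+) arrays, and 13 of its 14 core genes were below their own means. The immunoproteasome mean stayed between -0.028 and 0.065 in VD(-) recipients and between -0.077 and 0.13 in VD(+) recipients, and did not follow that order. In VD(+) replicate 1 it was also below 0, at -0.066, with 4 of 5 genes below their own means.

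**Figure D3:**
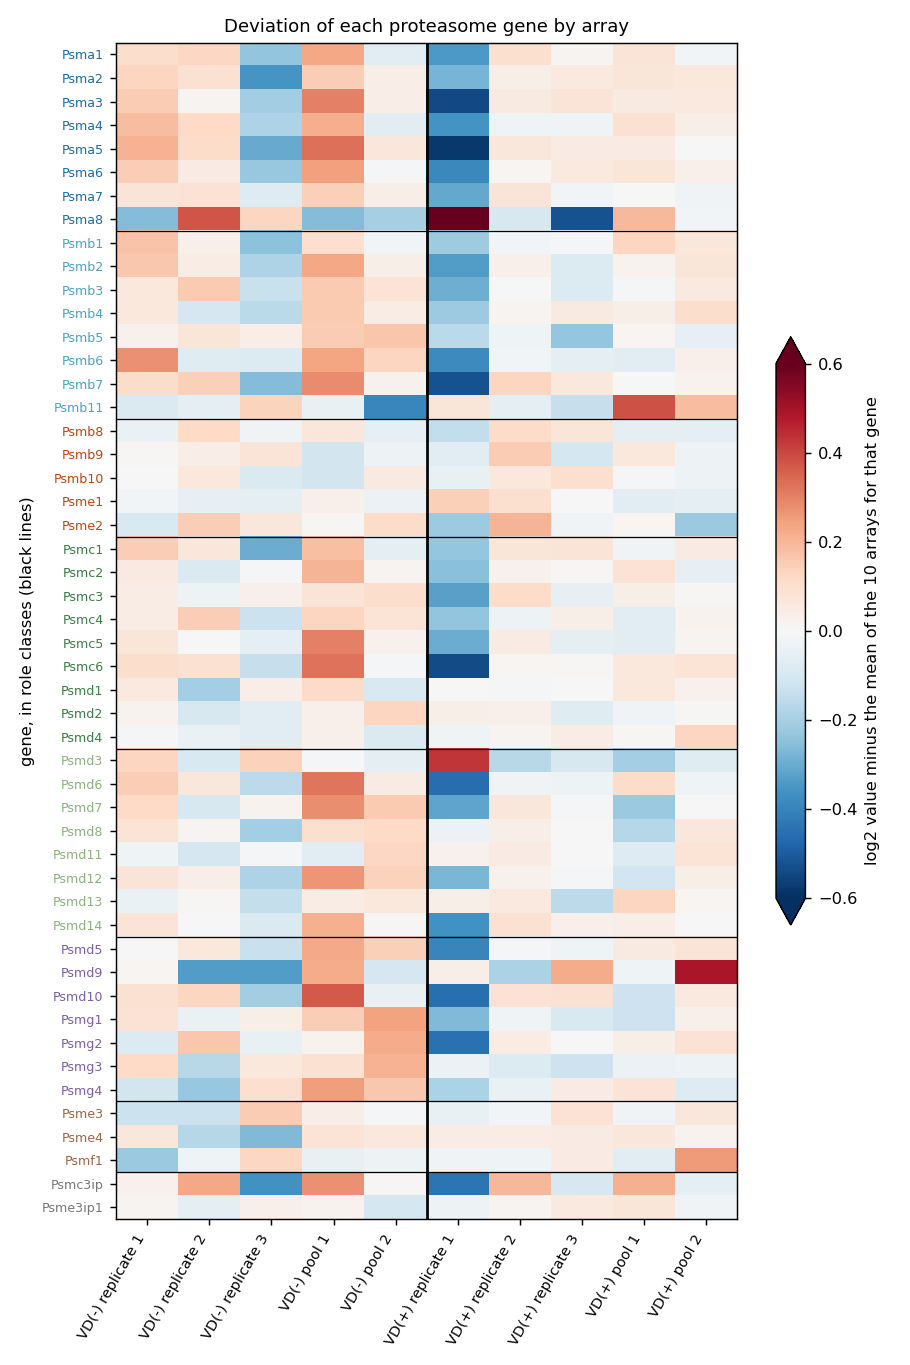
Log2 value minus the mean of the 10 arrays for each of the 50 genes (rows, grouped by role between black lines) in each array (columns, VD(-) left and VD(+) right of the thick line), blue for below and red for above. The column of VD(+) replicate 1 is blue for 33 of the 40 core, cap and chaperone genes (with Psmd3 and Psma8 among the exceptions) and that of VD(-) pool 1 is the reddest for 25 of 50, while the immunoproteasome rows other than Psme2 are paler.

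The spread within each group differed between the same 2 sets. For the 14 core genes the median SD was 0.17 in VD(-) and 0.16 in VD(+) recipients, while for the 5 immunoproteasome genes it was 0.074 in VD(-) and 0.10 in VD(+) recipients. Without VD(+) replicate 1, 28 of 50 members were above 0 and the median over all members was 0.015 in place of 0.072, with class medians of 0.017 for core alpha, 0.027 for core beta, 0.018 for the base, 0.058 for the lid (0.064 with it) and 0.037 for the chaperones. Without VD(-) pool 1 the median over all members was 0.031, with 32 of 50 above 0. The 7 arrays without Y-linked signal are VD(-) replicates 2 and 3 and the 5 VD(+) arrays. Among them, 23 of 50 members were above 0 and the median was -0.0045. That fit leaves out VD(-) pool 1, with the highest core mean (0.21). It keeps VD(-) replicate 3, with the lowest core mean of the VD(-) arrays (-0.19). The median was -0.0047 when the level of Y-linked genes minus that of Xist was added to the model of all arrays. Because all arrays with Y-linked signal are VD(-) arrays, sex of the cells and group cannot be told apart for these 3 arrays.

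**Figure D4:**
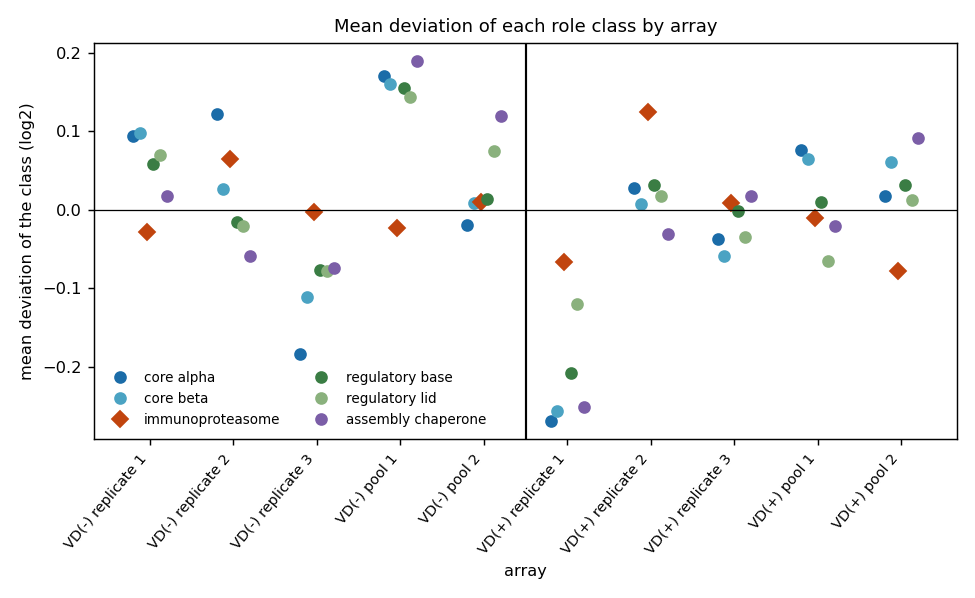
Mean deviation (log2, vertical axis) of the genes of each role class from their own means over the 10 arrays, by array (horizontal axis, VD(-) left and VD(+) right of the line). Core, cap and chaperone classes (circles) lie low together in VD(+) replicate 1 (base -0.21) and high together in VD(-) pool 1. In VD(-) replicate 3 they lie between -0.18 for core alpha and -0.075 for the chaperones. The immunoproteasome (diamonds) ranges between -0.077 and 0.13, with -0.066 in VD(+) replicate 1.

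Marker lists of other cell types moved across the same arrays. The tissue macrophage list (10 of 10 genes measured) averaged 7.48, 7.29, 7.21, 7.81 and 7.34 in VD(-) recipients, against 6.77, 7.11, 7.39, 7.21 and 7.40 in VD(+) recipients, and so was also lowest in VD(+) replicate 1 and highest in VD(-) pool 1, with 9 of 10 genes above 0. The list of pro-B and pre-B cells averaged 7.30, 6.16, 5.45, 7.60 and 6.46 in VD(-) recipients, against 6.26, 6.79, 6.62, 6.81 and 6.54 in VD(+) recipients. Its highest array was VD(-) pool 1 and its lowest VD(-) replicate 3, the array whose core transcripts were lowest among VD(-) recipients. The T and NK list ran the other way within VD(-) recipients, with 6.88 in replicate 3 and 5.98 in pool 1, and within 6.12 to 6.56 in VD(+) recipients. The mature B list, which averaged 6.40 to 6.82 in VD(-) and 6.73 to 7.10 in VD(+) recipients, had 1 of 7 measured genes above 0. The part of these cell types in the proteasome values was not tested.

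Of the genes around the proteasome, factors that act on it without bearing a Psm name were examined next (14 of 17 measured). None passed a nominal p below 0.05 in either direction, 9 of 14 were above 0 and the median was 0.055. Pomp, the chaperone with which the beta ring matures, had 9.71, 9.71, 9.67, 9.84 and 9.66 in VD(-) recipients, against 9.40, 9.64, 9.54, 9.69 and 9.64 in VD(+) recipients (log2 fold change 0.13, SE 0.073, limma adjusted p = 0.748). The cap deubiquitinase Uchl5 gave 0.15 (SE 0.080) and the proteasome-bound ubiquitin ligase Ube3c 0.12 (SE 0.080).

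The list around NFE2L1 and the ATPase VCP (8 of 9 genes measured) held 2 genes whose groups did not overlap. Nfe2l1, the factor behind coordinated transcription of proteasome genes, had 7.38, 7.38, 7.46, 7.49 and 7.44 in VD(-) recipients, against 7.27, 7.20, 7.26, 7.33 and 7.18 in VD(+) recipients. All VD(-) arrays lay above all VD(+) arrays, as for 0.911% of all probe sets, with a log2 fold change of 0.18 (SE 0.059, nominal limma p = 0.0099, adjusted p = 0.542, exact permutation p = 0.00794). Its difference did not depend on VD(+) replicate 1, as it stayed between 0.17 and 0.21 when each array was left out in turn and between 0.16 and 0.21 under the other alternatives. Vcp, which extracts NFE2L1 and other proteins from the endoplasmic reticulum, had 8.93, 8.85, 8.75, 8.94 and 8.83 in VD(-) recipients, against 9.02, 8.98, 9.03, 9.004 and 8.97 in VD(+) recipients. All VD(-) arrays lay below all VD(+) arrays, as for 0.641% of all probe sets, with a log2 fold change of -0.14 (SE 0.060, nominal limma p = 0.0379, adjusted p = 0.681, exact permutation p = 0.00794). Neither gene passed the adjusted test, and 1 of 8 higher and 1 of 8 lower at a nominal p stand beside 3.85% and 3.23% over all probe sets. Sel1l, a component of the machinery that retrieves proteins from the endoplasmic reticulum, gave -0.087 (SE 0.057).

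**Figure D5:**
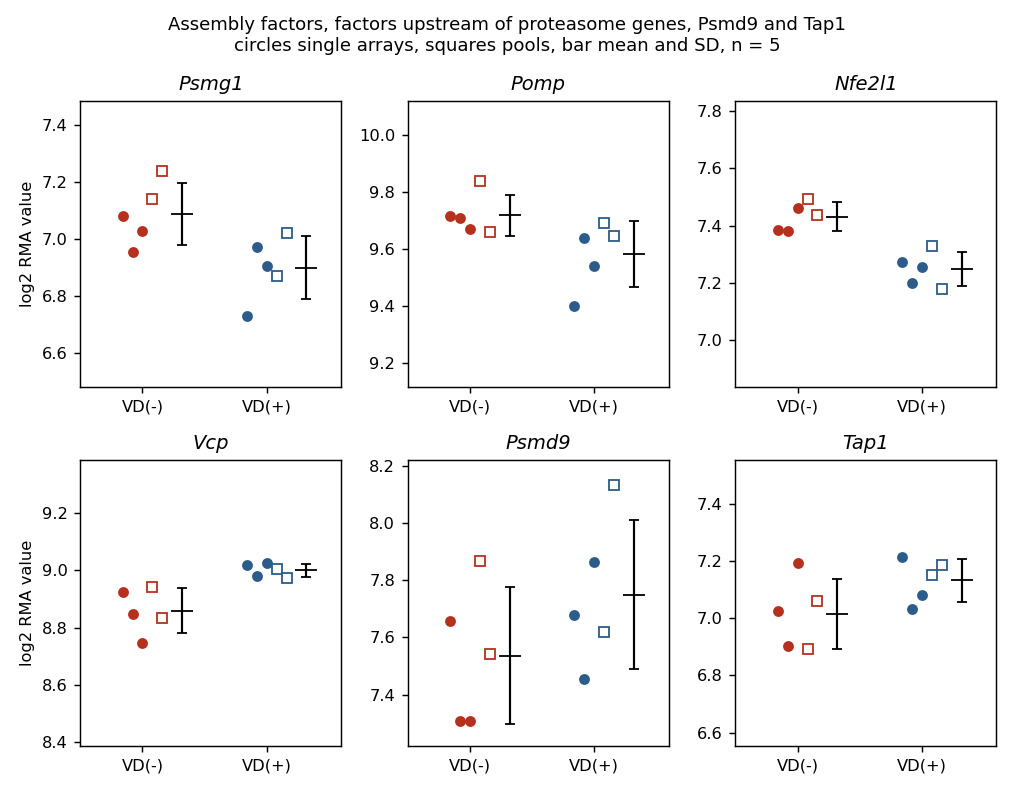
Log2 RMA values (vertical axes, each spanning 1.0) of the assembly factors Psmg1 and Pomp, of Nfe2l1, Vcp and Psmd9, and of Tap1 in VD(-) (red, left) and VD(+) (blue, right) HSC recipient marrow, with circles for single arrays, squares for pools and black bars for mean and SD (n = 5). The groups do not overlap for Nfe2l1 (VD(-) above) and Vcp (VD(-) below) and overlap in the other 4 panels.

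Genes that handle the peptides made by the immunoproteasome for MHC class I were measured for 12 of 15 listed. None passed a nominal p below 0.05, 3 of 12 were above 0 and the median was -0.045. Tap1, the neighbour of Psmb9, had 7.03, 6.90, 7.19, 6.89 and 7.06 in VD(-) recipients, against 7.22, 7.03, 7.08, 7.15 and 7.19 in VD(+) recipients (log2 fold change -0.12, SE 0.076, limma adjusted p = 0.796), and its groups overlapped. The light chain B2m gave -0.073 (SE 0.059) and the peptide-loading chaperone Calr -0.11 (SE 0.086). As with the 5 immunoproteasome genes themselves, no difference beyond the spread of the arrays was detectable in these genes.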

How the data were processed

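Total RNA of recipient bone marrow was amplified and hybridised to mouse whole-transcript arrays, judged by the probe sets of the values. The study's methods name a miRNA array instead, so the sources differ on the platform. The authors normalised the arrays with RMA (Partek) and deposited log2 expression values for 35556 probe sets in 10 arrays, with 0 per-sample columns left unused, and genome build and annotation version were not given in the sources used here. Platform annotation gave 1 gene symbol for 21789 probe sets, several for 1621 and none for 12146, and all 50 members matched a current gene record. Members and gene lists were chosen with earlier results of these data known. The deposited log2 values were fitted in limma 3.58.1 (R 4.3.3) with VD(-) against VD(+) as the only term and Benjamini-Hochberg adjustment over all probe sets, and single genes were also tested by exact permutation (scipy 1.17.1). The fit was tested on simulated data. Where a gene has several probe sets (5 members) the brightest was used, and where on the genome each lies was not examined, so signal from near-identical copies cannot be separated. Genes with individual values were the immunoproteasome subunits, their constitutive counterparts, and members past a nominal p of 0.05 or with groups that did not overlap. The smallest p, highest and lowest fold change of each role were also included. From each list around the proteasome came the genes of smallest nominal p and any gene with groups that did not overlap. Other genes named beside them were added after their values were seen. The antioxidant-response-like letters were narrowed after a wider pattern had been found in many promoters at large. Array data hold no read depth, and 5 arrays per group limit the precision. Alternatives were the methods' t-test, brighter probe sets, cyclic loess, array weights, another variance model, pools, sex-linked signal, a replicate block, the mean of all probe sets and leaving out each array.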

Additional observations from a re-analysis of the deposited data

Results flagged for a closer look

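Among the genes with individual values and the role classes, 78 groups of 5 arrays were examined for a single distant array (a gap to the nearest array above 0.71 of the range), and 6 stood out, all of them VD(+) replicate 1 on the low side. Chance would give about 1 in 20, but these groups share arrays and many genes were named for a high fold change or a small p, which a low VD(+) array favours, so the count is a description. That array read 9.41 for Psmb6 beside 9.73 to 9.82 in the other VD(+) arrays, 8.78 for Psmb7 beside 9.31 to 9.44, and 10.17 for Psma7 beside 10.45 to 10.55. It read 9.27 for Psma5 beside 9.85 to 9.91 and 8.10 for Psmc6 beside 8.64 to 8.72. The mean deviation of the 9 base genes was -0.207 there, beside -0.0013 to 0.032 in the other VD(+) arrays. Over all 50 members, named or not (100 groups), 17 groups had such an array. It was VD(+) replicate 1 in 16 of them, on the low side in 15 and on the high side in Psmd3 (7.10 beside 6.46 to 6.596), and VD(-) replicate 3, on the low side, in Psma2 (8.78 beside 9.17 to 9.28). None of the 17 was an immunoproteasome gene. The reason for the values of this array was not tested.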

How the results depend on the processing

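No member passed an adjusted p of 0.05 under any of 12 alternatives or 10 fits that left out 1 array. The 2 members higher at a nominal p became 0 in single arrays alone, in pools alone, with a sex-linked covariate (the level of Y-linked genes minus that of Xist) and among arrays without Y-linked signal, and ranged over 0 to 4 when an array was left out. Members lower at a nominal p numbered 1 in pools alone (Psmb11), 2 with that covariate and 2 among arrays without Y-linked signal (Psmd9 and Psme4 in both), and these 1, 2 and 2 also met the thresholds of the methods. The core beta median of 0.12 was -0.0089 with that covariate and -0.0041 among those arrays. Over all probe sets, same-numbered arrays of the 2 groups did not deviate together (correlations between -0.05 and 0.06). They were not treated as pairs in the main fit, though this check cannot exclude a pairing that touches few genes. With a replicate block, 1 member, Psmb5, was higher at a nominal p.

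Of 702 recomputed values of named genes, 677 kept their direction and 25 changed sign, each between groups that overlapped. With the sex-linked covariate these were Psmb9 (0.048), Psmb7 (-0.0036), Psma5 (-0.018), Psma8 (0.17), Psme3 (0.0019), Psmc3ip (-0.037) and Calr (0.028), and among arrays without Y-linked signal Psmb9 (0.054), Psma5 (-0.015), Psma8 (0.21), Psmc3ip (-0.030) and Calr (0.026). Single arrays alone turned Psmb9 (0.046), Psma8 (0.072) and Psmb11 (0.038), and pools alone Psme1 (0.055), Psmd11 (0.026), Psme4 (0.030) and Sel1l (0.0051). Leaving out an array gave -0.0020 to 0.062 for Psmb8, -0.034 to 0.030 for Psmb9, -0.23 to 0.068 for Psma8 and -0.030 to 0.17 for Psmc3ip. The cause of these changes was not tested.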
